A study of Mus musculus with 12 samples.

Results

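Kinesins, the motor proteins that walk along microtubules, tubulins, the subunits that microtubules are built from, and 6 named regulators of microtubule growth were described across the bulk RNA-seq libraries of a mouse tumour line. The genes were chosen by symbol and by no cut on measured values, though with earlier results of these data known. The rule took symbols that begin with Kif and a digit, symbols of alpha, beta, gamma, delta or epsilon tubulin, and Stmn1, Mapre1, Mapre2, Mapre3, Map4 and Map1b. Of 17718 rows of the count table, 53 met the rule: 32 Kif rows, 15 tubulin rows and the 6 regulators. The Kif rows include Kif1bp, which encodes a protein that binds kinesins and is not a motor, and the tubulin rows include the pseudogene Tubb4b-ps1. Passing the filter on low counts were 44 members; the 9 others held between 0 and 23 counts in each library.

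The cells were CT26, a colon carcinoma line of BALB/c mice, grown in culture without drug treatment. One group, with 3 libraries, carried wild-type Mll3, and the other, also with 3, a knock-out of it. Kmt2c, to use its current symbol, encodes a methyltransferase that places H3K4me1 at enhancers. The labels do not say how the gene was cut, whether the knock-out is 1 clone or a pool, or whether each library is a culture of its own. The tests below therefore see library-to-library spread, part of which may be technical. In such bulk samples, fewer cells of a kind and less RNA per cell cannot be told apart.

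Microtubules are polar tubes of alpha- and beta-tubulin dimers, each encoded by several nearly identical genes called isotypes. Kinesins use ATP to carry vesicles, organelles and proteins along them between divisions, and other kinesins build the spindle, move chromosomes and organise the midzone at which the cell is cut. A further set shortens microtubules from their ends. Tubulin mRNA is also known for a feedback in which free tubulin dimers promote decay of the message as it is translated.

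Library totals ran from 9559658 to 13406013 counts. The targeted gene, Kmt2c, stood at 24.9, 26.2 and 25.01 CPM (counts relative to library size, with TMM factors between libraries) in wild-type. Knock-out libraries held 15.96, 11.2 and 14.8 CPM, so its transcript was reduced and not absent (log2 fold change -0.87, adjusted p = 4.33e-08). Of 7 epithelial and colon markers, Epcam, Cdh1 and Cdx2 had no row in the table, while Krt18 and Krt20 were expressed in both genotypes (means of 38.8 and 14.97 CPM in wild-type), and the summed list went from 53.0 to 55.5 CPM up to 161 to 174 CPM. Of 5 T cell markers only Cd4 had a row, with group means of 0.252 and 0.281 CPM. Of 5 fibroblast markers with a row 4 were higher in the knock-out, with a median of 1.03 and sums of 1008 to 1025 against 1320 to 1359 CPM. Of 3 tested myeloid markers Lyz2 was higher (3.93), Csf1r lower (-1.19) and Cd68 not called, with a median of 0.06. The myeloid list summed to 18.7 to 22.7 CPM in wild-type and 18.8 to 22.5 CPM in knock-out libraries. Ptprc, near 0 (0.0961 and 0.277 CPM), was not tested, and Adgre1 and Itgam had no row. All 3 tested epithelial and colon markers were higher, with a median log2 fold change of 1.79 and values from 1.51 to 4.13. Of the endothelial list 1 marker was tested and was higher (2.08), with sums of 0.864 to 1.73 against 2.15 to 3.11 CPM. No B cell marker was tested. The part of these lists in the results below was not tested. Over all 13013 genes tested, 66.2% were called different (edgeR quasi-likelihood test, adjusted p under 0.05), 33.1% higher and 33.2% lower in the knock-out. A call by itself was therefore common in this comparison, and the size of each change carries more than the call.

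Of the 44 tested members, 32 (72.7%) were called, beside 66.2% of all genes. They divided into 21 higher (47.7% of members, against 33.1% of all genes) and 11 lower (25% against 33.2%). Changes of at least 2-fold were few: 3 higher (6.82%, against 10.1% of all genes) and 2 lower (4.55%, against 4.99%). The median log2 fold change, knock-out over wild-type, was 0.12 for the members and 0.02 for all genes, and the median absolute change was 0.42 and 0.41. In 31 members (70.5%) the 3 libraries of a genotype did not overlap those of the other, against 68.7% of all genes. Directions of small changes depend on the scaling: library size alone and upper-quartile scaling put the median of all genes at 0.14 and 0.17 in place of 0.02. With those scalings 23 and 24 members were called higher and 8 were called lower with each.

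**Figure D1:**
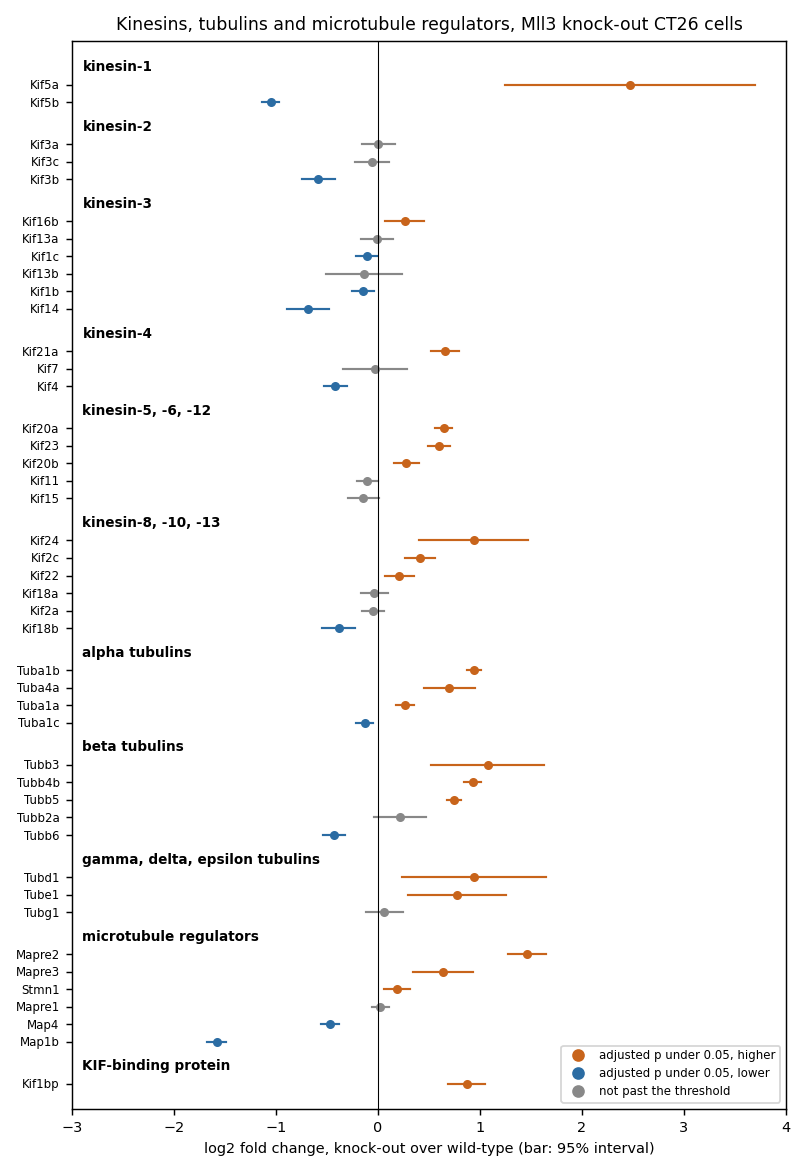
Log2 fold change, knock-out over wild-type, of the 44 tested members, grouped by family, with 95% intervals; orange members were called higher, blue members lower and grey members were not past the threshold. Map1b (-1.58) and Kif5b (-1.05) lie farthest to the left, and Kif5a, with few counts, has the widest interval (1.24 to 3.70).

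Among the cargo motors, the main change was a fall of conventional kinesin. Kif5b, the heavy chain of kinesin-1 in non-neuronal cells, which moves mitochondria, lysosomes and vesicles outward, stood at 339, 351 and 350.0 CPM in wild-type cells, whereas knock-out cells held 167, 163 and 170.2 CPM. Every knock-out library was far below every wild-type library. Its log2 fold change was -1.05 (SE 0.0419, n = 3 per group, adjusted p = 8.85e-30), a 2.08-fold fall. Kif5b lies on chromosome 18 (6201005 to 6241524, GRCm38.p6), a chromosome whose 293 tested genes had a median of -0.31. Its 30 nearest tested genes, up to 20 on each side, had a median of -0.62, with quartiles of -0.92 and -0.40. Kif5b was thus below the lower quartile of its own neighbourhood, and with the chromosome median removed its value was -0.74 (adjusted p = 8.16e-23). How much of the fall belongs to the region was not tested.

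The related heavy chain Kif5a, known mainly from neurons, was close to silent in wild-type cells, with 8 counts over 3 libraries, and reached 47 in the knock-out. Its levels were 0.0786, 0.204 and 0.539 CPM against 1.57, 1.30 and 1.54 CPM. The ratio of summed counts was 5.81, with a 95% exact binomial interval of 2.72 to 14.2 that covers counting error only (log2 fold change 2.47, adjusted p = 0.000388). Only the knock-out libraries, with 16, 15 and 16 counts, reached the filter's minimum count of 10. Kif5a was thus tested through the group in which it is high, and its calls are no independent support for the rise. Wild-type replicate 3 held 5 of the 8 wild-type counts: without it the ratio was 11.0 (3.53 to 55.1) and the log2 fold change 3.33, and without replicate 1 these were 3.98 (1.79 to 10.4) and 1.96. The gene was called in both cases (adjusted p = 0.000145 and 0.0104). In CPM the gain of Kif5a was far smaller than the loss of Kif5b, from means of 0.274 to 1.47 against 346 to 167. Kif5c, the third heavy chain, had at most 4 counts in any library and was not tested.

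Kinesin-1 carries its cargo through light chains and adaptors, and these did not follow one direction. Klc1 went from 143 ± 3.47 to 152 ± 4.76 CPM (mean ± SD, n = 3; log2 fold change 0.08, adjusted p = 0.127), Klc2 fell by 0.73 and Klc4 rose by 0.69 on the log2 scale. In the list of 19 light chains, adaptors and kinesins under other symbols, 17 were tested, of which 3 rose and 10 fell (33.1% and 33.2% of all genes), with a median of -0.23. The smallest p belonged to Plekhm2 (SKIP), which links lysosomes to kinesin-1 and fell by 0.95, from 52.5 ± 2.49 to 27.2 ± 1.22 CPM. Next was Kif1bp itself, the KIF-binding protein, which attaches to motor domains and keeps several kinesins off microtubules. It rose from 28.4, 26.5 and 28.7 CPM to 50.2, 46.5 and 56.3 CPM (log2 fold change 0.87, SE 0.0899, adjusted p = 1.39e-12), with no overlap between genotypes. Chromosome 10, which holds Kif1bp, had a median of 0.36. Once this was removed the rise was 0.51.

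The other transport kinesins had smaller changes, of which that of Kif3b was the clearest. In kinesin-2, which drives intraflagellar transport in cilia as a Kif3a and Kif3b pair, Kif3b fell from 61.1, 57.2 and 51.8 CPM to 37.3, 39.7 and 36.5 CPM (log2 fold change -0.59, SE 0.0814, adjusted p = 8.13e-09). Its partner Kif3a had a value of 0.00 (95% interval -0.16 to 0.17) and Kif3c -0.06 (-0.22 to 0.11), so the fall was called in 1 of the 3 subunits only. Kifap3, the shared non-motor subunit, had 0.14 (adjusted p = 0.105; 0.34, adjusted p = 0.000117, with the chromosome median removed). No test of the difference between Kif3b and Kif3a was made.

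Of 6 tested kinesin-3 genes, 1 rose and 3 fell. Kif14, which works in cytokinesis and not in transport, had the largest fall among them: 37.4, 35.1 and 33.5 CPM became 22.4, 22.9 and 20.7 CPM (log2 fold change -0.69, SE 0.102, adjusted p = 4.04e-08). With chromosome medians removed Kif14 stood at -0.49 (adjusted p = 3.75e-05), close to Kif13b at -0.48 (adjusted p = 0.0203). The vesicle motors Kif1b and Kif1c were called lower at -0.15 and -0.11, small values that turn to 0.01 and 0.04 with upper-quartile scaling. The endosome motor Kif16b was called higher (0.26, adjusted p = 0.0133), with overlapping groups. These 3 small calls depend on single libraries. Kif1c was at 138, 146 and 149 CPM against 131, 134 and 134 CPM, and its call was lost without wild-type replicate 2 (-0.11, adjusted p = 0.106), without wild-type replicate 3 (-0.10, adjusted p = 0.0719) and without knock-out library sg1 (-0.11, adjusted p = 0.0806). That of Kif1b was lost without wild-type replicate 2 (-0.12, adjusted p = 0.0945). That of Kif16b was lost without wild-type replicate 1 or 2 (both 0.22, adjusted p = 0.0738 and 0.0632) and without knock-out library sg1 (0.20, adjusted p = 0.109) or sg2 (0.22, adjusted p = 0.0867). Kif13a and Kif13b did not pass the threshold.

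The neuronal vesicle motor Kif1a, not tested for its low counts, had 2 counts over the wild-type libraries against 22 over the knock-out ones. This is a 10.9-fold ratio (exact 95% interval 2.67 to 95.4, counting error only), and the gene was called with no filter (adjusted p = 0.00911) and by DESeq2 (adjusted p = 0.0266). By library the counts were 2, 0 and 0 against 13, 4 and 5. Without library sg1 the ratio was 6.52 (1.35 to 62.0), and without wild-type replicate 1 no wild-type count remained and no ratio is given. Members known from neurons did not share a direction: Kif5a and the beta-tubulin Tubb3 rose, while Map1b, with the largest fall of the tested members, and Kif21b, with 22 counts against 5, were lower or had fewer counts. Of 9 neuronal markers outside the members, 4 were tested. Nefl, Nefm and Gap43 rose by 1.45, 0.14 and 0.60, and Syt1 fell by 3.60. Rbfox3, Snap25, Elavl3 and Elavl4 had no row. The whole list summed to 247 to 254 CPM in wild-type libraries, against 285 to 299 CPM in knock-out ones, and its part in these results was not tested.

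Of the 11 mitotic kinesins, 8 were called, near the 66.2% of all genes. The 3 kinesin-6 genes, which act at the spindle midzone and in cleavage, rose: Kif20a, which brings the chromosomal passenger complex to the midzone, Kif23, the motor of centralspindlin, and Kif20b, which acts late in cytokinesis. Kif20a went from 190.2, 184 and 188 CPM to 285, 296 and 297 CPM, with no overlap (log2 fold change 0.64, SE 0.0421, adjusted p = 4.24e-20). Kif23 went from 127, 119 and 106 CPM to 169.5, 188 and 177 CPM (log2 fold change 0.60, SE 0.0534, adjusted p = 1.32e-14). Kif20b had a log2 fold change of 0.28 (adjusted p = 7.89e-05), or 0.43 with the chromosome median removed. Kif20a also lies on chromosome 18, but its 40 nearest genes had a median of -0.08, and with the chromosome median removed its rise was 0.96 in place of 0.64.

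Other motors of the same stage fell. Kif4, a chromokinesin that sets the length of midzone microtubules with Prc1, went from 113, 116 and 113 CPM to 84.0, 92.5 and 79.8 CPM (log2 fold change -0.42, SE 0.0582, adjusted p = 8.77e-09). Prc1, the midzone crosslinker, fell by 0.70, and Kif14, given above, is a cytokinesis motor too. The midzone set thus held rises in Kif20a, Kif20b and Kif23 beside falls in Kif4, Kif14 and Prc1.

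Spindle assembly motors did not pass the threshold. Kif11 (Eg5), the motor that pushes spindle poles apart, had 168, 157 and 141 CPM against 140.3, 144 and 151 CPM, overlapping groups with a value of -0.11 (95% interval -0.21 to -0.0016, adjusted p = 0.0683). It was called lower without wild-type replicate 3 (-0.18, adjusted p = 0.000488), without knock-out library sg3 (-0.15, adjusted p = 0.0309) and with no filter (-0.12, adjusted p = 0.0325). Kif15, which can stand in for Kif11, had -0.15 (adjusted p = 0.0861), and it was called without wild-type replicate 3 (-0.19, adjusted p = 0.0386). Both other scalings that shift the median of all genes gave Kif11 a positive sign (0.051 with upper quartiles and 0.016 with library size).

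Kinesins that trim microtubule ends moved in both directions. Kif2c (MCAK), a depolymerase at centromeres, rose from 49.7, 47.7 and 46.0 CPM to 62.6, 61.5 and 67.5 CPM (log2 fold change 0.41, SE 0.0739, adjusted p = 2.27e-06). Kif24, a depolymerase of centrioles that holds back cilia, rose from about 2.86 ± 0.0900 to 5.49 ± 0.922 CPM (log2 fold change 0.94, adjusted p = 0.00185). Kif18b, which shortens astral microtubules, fell by 0.39, from 57.8 ± 5.49 to 44.0 ± 0.322 CPM. Kif2a, with 126, 112 and 114 CPM against 110.3, 118 and 113 CPM, and Kif18a did not pass the threshold (-0.05 and -0.04, 95% intervals -0.16 to 0.06 and -0.17 to 0.10). The chromokinesin Kif22 was called higher (0.21, adjusted p = 0.00935), but not without wild-type replicate 3 (0.14, adjusted p = 0.0881), without knock-out library sg3 (0.17, adjusted p = 0.0608) or with the chromosome median removed (0.12, adjusted p = 0.126).

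Over the 11 mitotic kinesins, 5 rose, 3 fell (33.1% and 33.2% of all genes) and 3 did not pass the threshold, with a median of -0.04. Their summed level went from 942 to 1010 CPM up to 1095 to 1130 CPM. Kif20a (means of 187 and 293 CPM) and Kif23 (118 and 178 CPM) had the largest gains, so the sum is no general rise. Beside the mitotic kinesins, 20 proliferation genes outside the members had 8 rises and 5 falls, with a median of 0.04 and overlapping sums of 3092 to 3247 and 3144 to 3201 CPM. Mki67 fell by 0.77 and Birc5, the survivin subunit of the passenger complex that Kif20a carries, rose by 0.58. The part that a shift in cell cycle stage could have in the kinesin values was not tested.

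Mitotic kinesin genes are known to share a promoter element, the cell cycle genes homology region (CHR), with core TTTGAA, bound by the DREAM and MuvB complexes. The element was searched on both strands in the promoter windows of RefSeq (GRCm38.p6), which span 250 bases before to 50 after each start. It was found for 9 of the 10 mitotic kinesins with a window, against 20.2% of 27025 genes with one. In 7 of the 10 a match lay within 50 bases of the start, against 5.72% of those genes. The 30 bases around these 7 matches are shown because genes that rose, genes that fell and genes with no call all carry the same letters. Matches are in capitals (TTCAAA is TTTGAA read on the other strand), and each stretch is written 5′ to 3′ on the strand of the gene.
Kif20b (rose, chr19:34922353-34922382, plus strand): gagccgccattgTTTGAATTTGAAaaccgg
Kif22 (rose, chr7:127042420-127042449, minus strand): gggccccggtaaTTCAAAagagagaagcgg
Kif23 (rose, chr9:61946780-61946809, minus strand): ctgattggcctgTTTGAAatgcgccgggcg
Kif4 (fell, chrX:100626072-100626101, plus strand): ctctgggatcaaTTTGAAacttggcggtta
Kif18b (fell, chr11:102925104-102925133, minus strand): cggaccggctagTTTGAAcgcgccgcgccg
Kif11 (no call, chr19:37376351-37376380, plus strand): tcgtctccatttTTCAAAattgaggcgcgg
Kif15 (no call, chr9:122951050-122951079, plus strand): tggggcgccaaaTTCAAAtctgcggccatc
Kif20b holds the core as a tandem pair. Kif14 and Kif2c had a match farther from the start used for their window, and Kif18a had none in its window. The windows of Kif14 and Kif2c lay inside the annotated genes. Those genes begin at 136466301 (Kif14, plus strand) and 117182624 (Kif2c, minus strand), and the bases around these positions were not searched. The 7 genes were set by a match within 50 bases of the start, and were printed because their directions were mixed. Of them 3 rose, 2 fell and 2 were not called. Kif20a, which rose, had no window. The part of the element in the kinesin values was not tested.

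Kinesin-4 has 2 more tested members. Kif21a, which slows microtubule growth at the cell edge, rose from 60.7, 55.5 and 54.0 CPM to 90.7, 82.6 and 95.5 CPM (log2 fold change 0.65, SE 0.0679, adjusted p = 1.57e-12). Kif7, the Hedgehog regulator at cilium tips, had -0.03 (95% interval -0.34 to 0.28). Kif21b, an immune and neuronal relative with 9, 9 and 4 counts against 2, 3 and 0, was not tested.

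**Figure D2:**
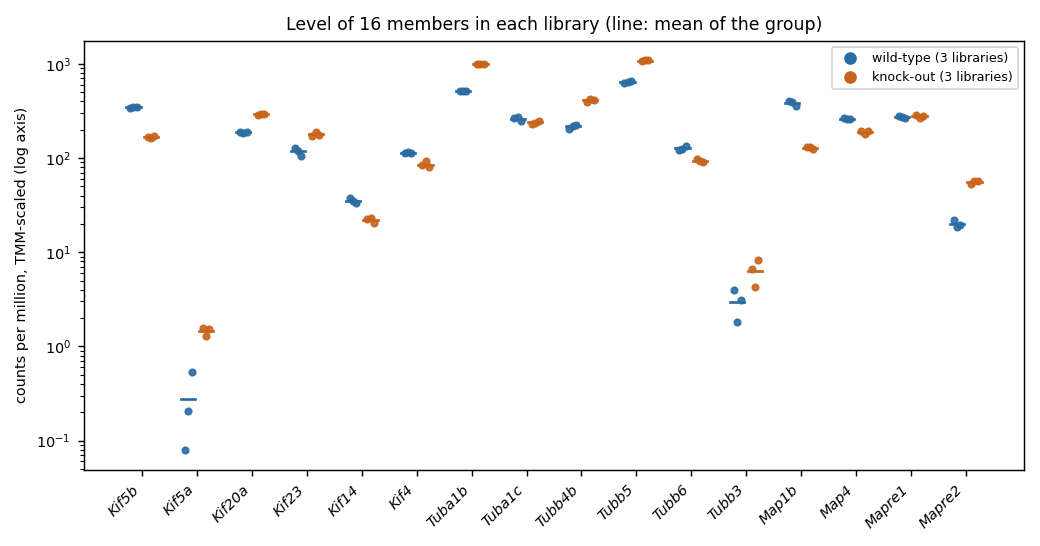
Level of 16 members in each library, in TMM-scaled CPM on a log axis; points are libraries, lines are means of 3 libraries, blue is wild-type and orange knock-out. The groups of Tuba1b, Tubb4b, Tubb5, Kif5b, Map1b and Mapre2 are well apart, while those of Mapre1 and Tuba1c overlap.

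Tubulin transcript totals were higher in the knock-out, and most of the added counts belonged to Tuba1b, Tubb5 and Tubb4b. The alpha-tubulin rows summed to 967 to 981 CPM in wild-type libraries, against 1469 to 1479 CPM in knock-out ones, a 1.51-fold rise of the means. The beta-tubulin rows summed to 980.1 to 1036 and 1584 to 1633 CPM, a 1.60-fold rise. Both sums were far apart between genotypes, with alpha and beta ratios close to each other. Isotype genes are close copies, and reads that match more than 1 of them may have been dropped or split in a way not given in the sources used here, so single rows are uncertain by an unknown share of such reads.

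Tuba1b, the main ubiquitous alpha-tubulin gene, went from 521, 512 and 517 CPM to 993, 991 and 991 CPM (log2 fold change 0.94, SE 0.0335, adjusted p = 5.38e-32). Tubb4b went from 204, 221 and 226 CPM to 396, 423 and 418 CPM (log2 fold change 0.93, SE 0.0417, adjusted p = 2.87e-27). Tubb5, the main beta-tubulin of dividing cells, went from 632, 650 and 654 CPM to 1060.4, 1088 and 1093 CPM (log2 fold change 0.74, SE 0.0331, adjusted p = 1.71e-27). In each of these genes every knock-out library lay far above every wild-type one. Tuba1b and Tubb5 lay above the upper quartile of their neighbours (0.73 and 0.14), whereas Tubb4b lay inside the quartiles of its own (0.11 to 0.99, median 0.37). All 3 were also called against a 1.5-fold change by glmTreat, together with Kif5a, Kif5b, Kif1bp, Map1b and Mapre2.

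The other tested isotypes went in both directions, and none of them was called against a 1.5-fold change by glmTreat. Tuba1a, next to Tuba1b on chromosome 15, rose by only 0.26 (181, 181 and 183 CPM to 221, 221 and 211 CPM). Tuba1c, on the same stretch, was at 265, 272 and 247 CPM against 231, 237 and 247 CPM, overlapping groups called lower at -0.13 (adjusted p = 0.00643). That call was lost without wild-type replicate 2 (-0.11, adjusted p = 0.0547), and the value was 0.03 with upper-quartile scaling. Tuba1a, Tuba1b and Tuba1c lie on 1 stretch, from 98931429 to 99038105 (GRCm38.p6), in a neighbourhood with a median of 0.43: Tuba1b lay above its upper quartile (0.73) and Tuba1c below its lower one (0.15). Tuba4a, a minor alpha isotype, rose by 0.70, from 16.3 ± 2.58 to 26.3 ± 2.83 CPM.

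Tubb6, the beta isotype known to weaken the microtubule array when abundant, fell from 123, 126 and 133 CPM to 97.5, 93.5 and 91.6 CPM (log2 fold change -0.43, SE 0.0547, adjusted p = 5.83e-10). Tubb6 is on chromosome 18, where its 40 nearest tested genes had a median of -0.49 (quartiles -0.90 and 0.06). With the chromosome median removed the value was -0.12 (adjusted p = 0.0470), and its fall lay inside the quartiles of its neighbours. Tubb3, used as a neuronal marker, rose from 3.93, 1.84 and 3.13 CPM to 6.56, 4.32 and 8.26 CPM (log2 fold change 1.07, SE 0.274, adjusted p = 0.000547). Its neighbours on chromosome 8 had a median of -0.43. Tubb2a had 0.21 (95% interval -0.04 to 0.47, adjusted p = 0.133), was called with upper-quartile scaling (0.37), with library size alone (0.34) and with the chromosome median removed (0.33), and Tubb4a and Tubb4b-ps1 were not tested.

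As shares of the family's counts, Tuba1b went from 52.9% ± 0.649 of alpha-tubulin counts to 67.3% ± 0.297 (mean ± SD, n = 3), a gain of 14.3 percentage points. Tuba1c went from 26.8% ± 1.10 to 16.2% ± 0.523 and Tuba1a from 18.6% ± 0.272 to 14.8% ± 0.404. Shares within a family are tied, so a larger share of Tuba1b means smaller shares of other isotypes. Tuba1a lost share although its CPM rose (log2 fold change 0.26). Among beta-tubulin counts, Tubb6 went from 12.6% ± 0.241 to 5.83% ± 0.287, Tubb4b from 21.5% ± 0.529 to 25.5% ± 0.503 and Tubb5 from 63.8% ± 0.708 to 66.9% ± 0.104. For each of these 6 and for Tubb2a the groups did not overlap and the exact two-sided permutation test gave p = 0.1, the smallest that 3 against 3 allows (0.157 adjusted over 11 isotypes). The design cannot reach 0.05 on this measure. These shares are of reads, not scaled by transcript length, and are read only between genotypes.

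**Figure D3:**
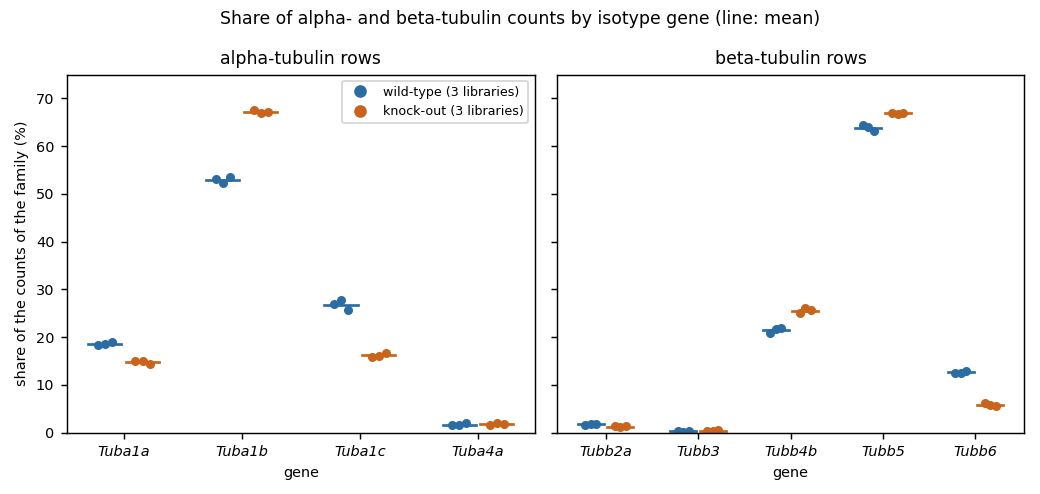
Share of all alpha-tubulin counts (left) and all beta-tubulin counts (right) held by each isotype gene in each library, in percent; points are libraries and lines are means, and the isotypes with the smallest shares are left out. Tuba1b gains and Tuba1c loses share in the knock-out, and the share of Tubb6 falls from about 12.6% to 5.83%.

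The 150 bases before the starts of the 3 tubulin genes that rose most in CPM are shown. These genes lie on 3 chromosomes, and their common direction follows from how they were chosen. Capitals mark CCAAT, the box bound by NF-Y, searched on both strands. Over the whole promoter window it was found for 5 of 9 alpha- and beta-tubulin genes, against 41.1% of all genes with a window.
Tuba1b (chr15:98934391-98934540, minus strand): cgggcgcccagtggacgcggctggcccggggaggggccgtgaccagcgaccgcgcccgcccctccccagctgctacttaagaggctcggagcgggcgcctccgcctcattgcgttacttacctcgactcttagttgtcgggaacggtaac
Tubb4b (chr2:25224703-25224852, minus strand): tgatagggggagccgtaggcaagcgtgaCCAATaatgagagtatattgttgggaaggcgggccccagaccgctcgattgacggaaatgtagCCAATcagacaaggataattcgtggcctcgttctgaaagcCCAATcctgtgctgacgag
Tubb5 (chr17:35838302-35838451, minus strand): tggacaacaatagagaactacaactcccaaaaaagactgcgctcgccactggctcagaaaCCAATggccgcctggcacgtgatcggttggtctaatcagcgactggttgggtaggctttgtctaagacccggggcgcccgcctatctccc
Tubb4b holds 3 copies of the box in this stretch, Tubb5 holds 1 and Tuba1b none. The 3 genes thus had no common match to this motif.

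Gamma-tubulin, which nucleates microtubules at centrosomes, did not pass the threshold. Tubg1 had 38.7, 35.5 and 38.2 CPM against 36.3, 43.5 and 37.5 CPM (log2 fold change 0.06, 95% interval -0.12 to 0.24), and was called only with upper-quartile scaling (0.22). Delta- and epsilon-tubulin, needed for the triplet microtubules of centrioles, rose from low levels. Tubd1 went from 1.72 ± 0.474 to 3.26 ± 0.372 CPM (0.94, adjusted p = 0.0166) and Tube1 from 3.94 ± 0.959 to 6.77 ± 1.22 CPM (0.78, adjusted p = 0.00396). The call of Tubd1 was lost without wild-type replicate 1 (0.70, adjusted p = 0.0991), without knock-out library sg2 (0.90, adjusted p = 0.0533) and without sg3 (0.86, adjusted p = 0.0637). That of Tube1, on chromosome 10, was lost with the chromosome median removed (0.42, adjusted p = 0.124).

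Of the 6 named regulators 3 rose, 2 fell and 1 did not pass the threshold. Map1b, a stabiliser best known from growing axons, had the largest fall of all tested members: 408, 389 and 361 CPM became 131, 130.4 and 125 CPM (log2 fold change -1.58, SE 0.0451, adjusted p = 1.29e-36), or 3.00-fold. Its neighbours on chromosome 13 had a median of -0.19. Map4, the main structural protein of this kind outside neurons, fell from 266, 258 and 260.2 CPM to 193, 181 and 192 CPM (log2 fold change -0.47, SE 0.0430, adjusted p = 1.55e-14). Neither pair of groups overlapped.

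The end-binding proteins ride on growing tips and recruit other factors there. Mapre2 (EB2) rose from 22.2, 18.7 and 19.5 CPM to 53.6, 56.7 and 56.6 CPM (log2 fold change 1.46, SE 0.0925, adjusted p = 1.21e-20), although it lies on chromosome 18. With that chromosome's median removed the rise was 1.77. Mapre3 (EB3) rose from 10.6 ± 0.154 to 16.6 ± 1.48 CPM (0.64, adjusted p = 0.000133). Mapre1 (EB1), the core tip tracker, stood at 281, 271 and 268 CPM against 287, 267 and 279 CPM, with a value of 0.02 (95% interval -0.06 to 0.11); it was called higher with upper-quartile scaling (0.18) and library size alone (0.14). Stmn1, stathmin, which binds free tubulin dimers, was called higher at 0.18 (75.03 ± 3.46 to 85.3 ± 5.28 CPM, adjusted p = 0.00981). That call was lost without knock-out library sg2 (0.12, adjusted p = 0.130) and with the chromosome median removed (0.14, adjusted p = 0.0513).

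**Figure D4:**
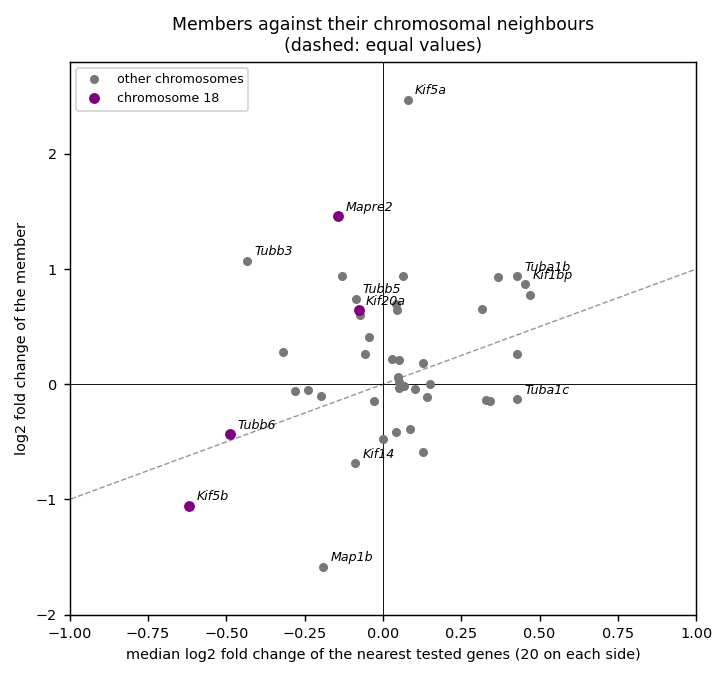
Log2 fold change of each tested member (vertical axis) against the median of its nearest tested genes on the chromosome, up to 20 on each side (horizontal axis); the dashed line marks equal values and purple points lie on chromosome 18. Tubb6 sits on the line, Kif5b below it, and Kif20a and Mapre2 above 0 in neighbourhoods with medians of -0.08 and -0.14.

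Measured against their chromosomal neighbours, 20 of the 44 tested members lay inside the quartiles of the nearby genes, 15 above and 9 below. Values outside quartiles are common by the definition of quartiles, and the share over all tested genes was not computed. These counts are therefore no result about the members as a set. Of the 4 members on chromosome 18, Kif5b lay below, Tubb6 inside, and Kif20a and Mapre2 above these quartiles, in neighbourhoods with medians of -0.62, -0.49, -0.08 and -0.14. Among all members, those below were Kif5b, Map1b, Map4, Kif3b, Kif4, Kif14, Kif1b, Kif13b and Tuba1c. Those above were Kif16b, Kif1bp, Kif20a, Kif21a, Kif23, Kif24, Kif2c, Kif5a, Mapre2, Mapre3, Tuba1b, Tuba4a, Tubb3, Tubb5 and Tubd1.

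Other parts of the microtubule system were read from lists of genes outside the rule. Each count of such a list stands beside 33.1% higher and 33.2% lower over all genes, and the counts near those shares are no result about the list. Of 21 tested dynein and dynactin genes, which form the motor that runs opposite to most kinesins, 3 rose and 10 fell, with a median of -0.12. Dync1li2, a cargo-binding light intermediate chain, fell by 1.41 from 261 ± 15.8 to 98.4 ± 2.28 CPM, and by 1.05 with the median of chromosome 8 removed. Pafah1b1 (LIS1), a dynein activator, fell by 0.64. In the gamma-tubulin ring and augmin list, 9 of 18 rose and 5 fell, with a median of 0.13, Haus4 at 1.10 and Haus3 at -0.56.

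Of 21 prefoldin, chaperonin and tubulin cofactor genes, 9 rose and 8 fell, with a median of -0.09. Values in this list ran from -0.62 to 0.90, and the chaperonin subunits Cct4 and Cct6a fell by 0.62 and 0.41. Of 20 tubulin-modifying and severing genes, 8 rose and 7 fell, with a median of 0.24. Ttl, the ligase that restores the end tyrosine of alpha-tubulin, fell from 100.2 ± 7.92 to 56.9 ± 1.08 CPM (log2 fold change -0.82) and Ttll12 rose by 0.52. Of 26 other microtubule-associated proteins, 6 rose and 10 fell, with a median of -0.08. Prc1 fell, as given above, and the tip protein Clip2 rose by 1.33, from 21.5 ± 1.23 to 54.0 ± 1.73 CPM.

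The remaining untested members were near the detection limit. Kif19a, a motor that shortens cilia, had no counts in wild-type and 3, 3 and 1 in knock-out libraries, and it was called with no filter (adjusted p = 0.0427). Kif9, a motor of motile cilia, had 6, 4 and 3 counts against 1, 9 and 14, and Kif27 had 5, 1 and 0 against 3, 0 and 0. Tubb4a, a beta isotype of brain, had 9, 4 and 8 counts against 12, 23 and 9, and the pseudogene Tubb4b-ps1 had 0, 0 and 3 against 7, 1 and 8. Tubg2, the second gamma-tubulin, had 3, 8 and 0 counts against 3, 2 and 3. At these counts a difference was not detectable by the tests used, apart from the calls named for Kif19a and Kif1a.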

How the data were processed

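The authors deposited 1 table of whole-number read counts per Ensembl gene; the submitters' processing notes name fastp, STAR and HTSeq and build mm10, without their roles. For versions, annotation release and strand setting, nothing is given in the sources used here. The labels' protocols name a directional kit. Every row has a count in at least 3 libraries. Wild-type columns were matched to samples; knock-out columns carry sg1 to sg3, which may be guides or replicates, and were matched to the group only. CUT&Tag and single-cell samples were not analysed here.

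Symbols were found for 17650 rows, and positions for 15724 on GRCm38.p6 from RefSeq. Genes kept by filterByExpr (minimum count 10, minimum total 15) were TMM-scaled and tested with edgeR 4.0.16 in R 4.3.3 (quasi-likelihood, robust), with Benjamini-Hochberg adjustment over 13013 genes. SE values derive from the F statistic and intervals are 95%. 1 count was worth 0.0786 to 0.108 CPM. Promoter windows were matched by symbol for 41 members; Kif13b, Kif19a, Kif1bp, Kif20a, Kif21b, Kif5a, Kif5b, Mapre2, Stmn1, Tubb4b-ps1, Tubb6 and Tubg1 had none. The pipeline was tested on simulated counts in which far fewer genes changed than were called here. That test does not bear on the choice of scaling.

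Alternatives were other scalings and filters, DESeq2 1.42.0, limma voom 3.58.1, glmTreat, a threshold of 0.01, chromosome medians as an offset and each library left out. Count ratios of Kif5a and Kif1a with a library left out were added after the data were seen. The members and lists were chosen with earlier results of these data known. Library values are given for members changed at least 2-fold, the member with most counts of each family and their counterparts; further members were chosen after their values were seen, as were the sequence motifs.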

Additional observations from a re-analysis of the deposited data

How the results depend on the processing

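Of the 32 called members, 24 kept their call and direction in every setting that tested them, except glmTreat. The others were Kif16b, Kif1b, Kif1c, Kif22, Stmn1, Tuba1c, Tubd1 and Tube1. Under the stricter filter only 30 of the 32 had a value: Kif5a, which is among the 24, and Tubd1 were not tested there. Against a 1.5-fold change glmTreat called 6 members higher and 2 lower, in place of 21 and 11. With 1 library left out, 18 to 20 members were called higher and 8 to 12 lower. With upper-quartile scaling the sign turned for Kif1b (0.010), Kif1c (0.044) and Tuba1c (0.027), none of them called there, and library size alone turned Kif1c (0.0080). DESeq2 lost the calls of Kif16b and Kif1c, limma voom that of Kif1c, and the stricter filter those of Kif1b and Kif1c. Over all genes the share of calls that were higher was 49.9% with TMM, 63.7% with upper quartiles and 60.5% with library size alone; for members it was 65.6%, 75% and 74.2%.

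Members without a call also changed sign, and were uncalled there. Upper-quartile scaling turned Kif11 (0.051), Kif13a (0.15), Kif13b (0.018), Kif15 (0.011), Kif18a (0.12), Kif2a (0.11), Kif3c (0.10) and Kif7 (0.13). Library size alone turned Kif11 (0.016), Kif13a (0.11), Kif18a (0.084), Kif2a (0.074), Kif3c (0.064) and Kif7 (0.091). Removing chromosome medians turned Kif11 (0.051), Kif13a (0.11), Kif2a (0.070) and Kif3a (-0.053). The stricter filter turned Kif13a (0.023) and Kif7 (0.0034), no filter turned Kif3a (-0.013) and DESeq2 did too (-0.0089). With 1 library left out, values ran from -0.081 to 0.049 for Kif13a, -0.28 to 0.027 for Kif13b, -0.11 to 0.0080 for Kif18a, -0.086 to 0.0070 for Kif2a, -0.044 to 0.050 for Kif3a, -0.12 to 0.046 for Kif7, -0.011 to 0.042 for Mapre1 and -0.035 to 0.10 for Tubg1. Removing chromosome medians made Kif13b (-0.48) and Kif15 (-0.19) called lower. The share of Tubb4a differed by -0.0016 to 0.0330 percentage points with 1 library left out. The causes of these changes were not tested.

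No paired analysis was possible because the knock-out columns could not be matched to numbered samples, so the fit with a replicate block was not run. Shares per kilobase were not run, as no transcript lengths were used here. Depth limits the precision for Kif5a, Kif24, Tubb3, Tubd1 and Tube1 and for the 9 members not tested.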
